A study of Mus musculus with 6 samples.

Results

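The genes described here are 10 chaperones and folding helpers of the endoplasmic reticulum (ER): Hspa5, Hsp90b1, Calr, Canx, Pdia3, Pdia4, Pdia6, Sdf2l1, Dnajb9 and Herpud1. They were taken by gene symbol from count tables of 33924 symbols. All 10 were in the tables and all 10 passed the filter on low counts, among 14250 genes tested. The cells were E14, a line of mouse embryonic stem cells, and gave 3 libraries labelled Rif1-KO and 3 labelled control. RIF1 is a nuclear protein that helps to set replication timing and to silence genes, and the design sets cells labelled as its knockout against control cells. For both groups the labels describe culture on 0.1% gelatin in 2i medium at 37 °C and 5% CO2, then 0.1 µM 4-hydroxytamoxifen (4-OHT) for 2 days and 1 day without it. Both groups were made into mRNA libraries from 200 ng of total RNA. Column headers of the deposited tables, however, read TAM for each library labelled Rif1-KO and 2i for each control library. Any difference in drug or medium between the groups therefore cannot be told apart from the difference in Rif1. The sources used here do not say how Rif1 was disrupted, nor whether replicates are separate cultures or clones. The p-values therefore rest on a spread between samples that may be technical.

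Proteins bound for the cell surface or for secretion fold inside the ER. The chaperone BiP, encoded by Hspa5, holds unfolded chains, the lectins calreticulin and calnexin hold sugar-bearing chains, and protein disulfide isomerases form and reshuffle disulfide bonds. When unfolded protein builds up, the sensors ATF6, IRE1 and PERK start the unfolded protein response, in which ATF6 and XBP1 raise transcription of chaperone genes. Many of these genes carry the ER stress element in their promoters, a CCAAT box that the factor NF-Y binds, followed at a fixed distance by a motif that ATF6 binds.

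Copies of this element are shown because Hspa5, Hsp90b1, Calr, Canx and Pdia6 share it. Of these 5, 4 fell and Pdia6 did not pass the test described below, in which 24.8% of all genes fell. Among the 17 other tested genes found with the element, 4 fell (23.5%). Whether the element had a part in the falls was not tested. It was searched as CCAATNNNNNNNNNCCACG on both strands of the RefSeq promoters of build GRCm38.p6, from 250 bases before to 50 bases after each start site. All 10 genes matched 1 promoter each. The element stood in 39 of 32851 promoters (0.119%) and in 37 of 27025 genes searched (0.137%), and 5 of the 10 genes held it. Since many chaperone genes are known to carry it, this count is a description and no test. Herpud1 held a second form, searched as ATTGG, any 1 base and CCACG on both strands, which stood in 12 promoters (0.0365%). In the lines that follow, each stretch is written 5′ to 3′ on the strand of its gene, the element is in capitals with 8 flanking bases on each side in lower case, and positions are counted from the start site.
Hspa5, plus strand, chr2:34772017-34772051, element at -65 to -47: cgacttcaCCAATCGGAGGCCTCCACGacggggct
Hsp90b1, minus strand, chr10:86705630-86705664, element at -212 to -194: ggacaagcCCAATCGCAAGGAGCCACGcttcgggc
Hsp90b1, minus strand, chr10:86705525-86705559, element read on the opposite strand at -107 to -89: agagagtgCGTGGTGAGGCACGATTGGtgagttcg
Calr, minus strand, chr8:84847067-84847101, element read on the opposite strand at -162 to -144: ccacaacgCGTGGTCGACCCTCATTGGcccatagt
Canx, minus strand, chr11:50325792-50325826, element at -145 to -127: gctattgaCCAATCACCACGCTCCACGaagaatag
Pdia6, plus strand, chr12:17266483-17266517, element at -98 to -80: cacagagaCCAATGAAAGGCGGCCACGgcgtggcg
Herpud1, plus strand, chr8:94386369-94386395, second form at -52 to -42: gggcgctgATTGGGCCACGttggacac
Hsp90b1 alone among the 10 held more than 1 exact copy in its window, in opposite orientations. Inexact copies were not searched for. Neither form occurred with these letters in the windows of Pdia3, Pdia4, Sdf2l1 and Dnajb9. No match says only that these letters are not in the window. The short motif CCACG, which both forms contain, occurred 3 times in the Sdf2l1 window, 2 times in that of Dnajb9, once in that of Pdia4 and not in that of Pdia3. It stood in 32.8% of all promoters, and a match of letters does not show binding.

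**Figure D1:**
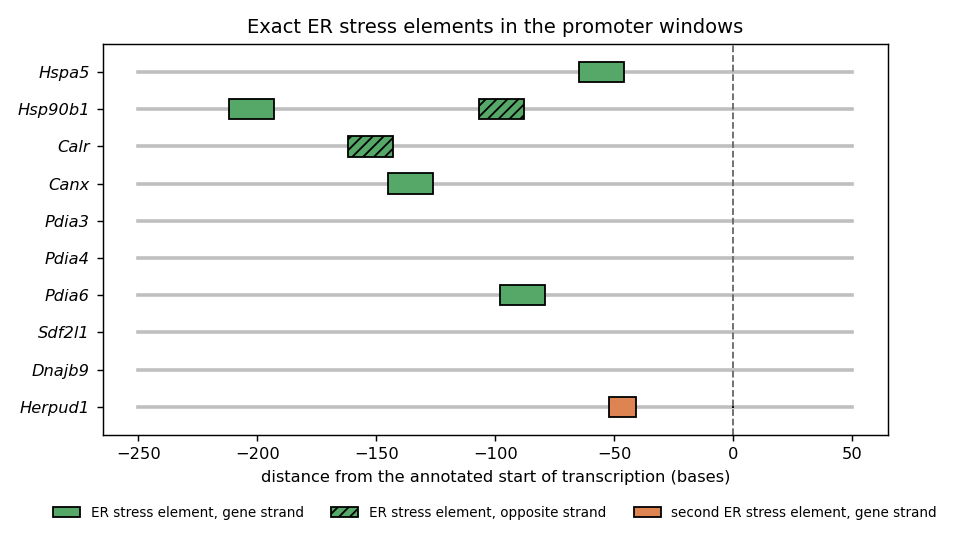
Position of the ER stress element in the promoter windows of the 10 genes (rows), as distance in bases from the RefSeq start site (x axis), with green boxes for the element, hatched where it reads on the opposite strand, and an orange box for the second form. Hspa5, Hsp90b1, Calr, Canx and Pdia6 hold the element, all copies lying upstream of the start site, and Herpud1 holds the second form.

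ER chaperone transcripts were lower in libraries labelled Rif1-KO than in control libraries. Of the 10 genes, 7 fell, none rose and 3 did not pass the test, and all 10 log2 fold changes were below 0, with a median of -0.23. The words rose and fell are kept for genes with an adjusted p under 0.05 in edgeR's quasi-likelihood test (Benjamini-Hochberg adjustment over the 14250 genes tested), which gave each adjusted p printed here unless DESeq2 is named. Among all genes tested, 24.8% fell, 26.1% rose and 50.9% did either. Their median log2 fold change was 0.003, and 7075 of the 14250 were below 0. The 10 below 0 include Pdia6 at -0.01, whose sign changed in 5 of 13 alternative fits described below. The libraries labelled Rif1-KO all lay below the control libraries at 8 of the 10 genes, against 27.8% of all genes tested. The 10 genes were chosen with earlier results of these data known, so these counts describe them and are no test. CPM are read counts scaled to a common library size. In a comparison added after seeing the data, 2515 tested genes had a mean of at least 100 CPM. Of these, 1014 fell (40.3%), 1424 had a log2 fold change below 0, and the median was -0.05. At 1025 of the 2515, the libraries labelled Rif1-KO all lay below the control libraries. At that level stood 7 of the 10 genes, of which 6 fell, with a median of -0.29. The groups did not overlap at those 6. In bulk RNA, fewer cells of a type and less RNA per cell cannot be told apart.

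Library totals ran from 9185062 to 10980777 counts in libraries labelled Rif1-KO and from 8383632 to 9218036 in control libraries. Log CPM correlated across genes at 0.993 to 0.995 within groups and at 0.968 to 0.969 between groups. Rif1 itself stood at 623 ± 35.5 CPM in libraries labelled Rif1-KO and at 677 ± 21.9 CPM in control libraries (SD, n = 3 each; log2 fold change -0.12 ± 0.05 SE, adjusted p = 0.0509). A count over the whole gene cannot check a deletion of some exons, so the groups are named by their labels. The summed pluripotency markers overlapped between the groups. The sums of the other marker lists did not, but outside the 2-cell-like list each held genes that rose and genes that fell. For the counts below, 26.1% of all genes tested rose and 24.8% fell. The 9 pluripotency markers summed to 5258 to 5598 CPM in libraries labelled Rif1-KO and 5130 to 5369 CPM in control libraries, and 4 rose and 2 fell. The 15 primitive endoderm markers summed to 1785 to 1836 CPM in libraries labelled Rif1-KO, against 1583 to 1591 CPM in control libraries, and of the 12 tested 7 rose and 1 fell. Sparc, a matrix protein gene, averaged 516 CPM in libraries labelled Rif1-KO and 269 CPM in control libraries, a difference about as large as that between the sums. The 8 trophectoderm markers summed to 165.5 to 177.8 CPM in libraries labelled Rif1-KO, against 79.69 to 81.08 CPM in control libraries. Of 4 tested members 2 rose and 1 fell, and these were the keratin genes Krt18, Krt8 and Krt7. Cdx2 was at 0 in all 6 libraries. The 12 fibroblast markers summed to 4858 to 5345 CPM in libraries labelled Rif1-KO, against 4376 to 4637 CPM in control libraries, with 2 higher and 2 lower, and with 2 of them at 0 in libraries labelled Rif1-KO and 4 in control libraries. Most of that sum was Fn1, which encodes fibronectin, at 4868 CPM in libraries labelled Rif1-KO and 4300.4 CPM in control libraries. The 9 markers of the 2-cell-like state summed to 37.14 to 39.9 CPM in libraries labelled Rif1-KO, against 0.3645 to 0.4425 CPM in control libraries, and all 8 tested rose. Their part in the chaperone result was not tested.

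Hspa5 and Hsp90b1 encode the Hsp70 and Hsp90 proteins of the ER, BiP and GRP94, and both fell by about the same amount. Hspa5 had 268, 285 and 265 CPM in libraries labelled Rif1-KO, against 345, 331 and 342 CPM in control libraries. The groups did not overlap, and each stayed within a narrow band, with means of 272 ± 10.8 CPM in libraries labelled Rif1-KO and 339 ± 7.62 CPM in control libraries (SD, n = 3 each). Hspa5 fell by 19.8% (95% interval -24.9% to -14.3%), a log2 fold change of -0.32 ± 0.05 (SE) with an adjusted p of 9.01e-06. BiP is the chaperone that keeps the stress sensors inactive in unstressed cells, and its level is a usual gauge of the unfolded protein response.

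Hsp90b1 had 469.8, 492 and 512 CPM in libraries labelled Rif1-KO, against 582, 639.8 and 604 CPM in control libraries. Every library labelled Rif1-KO lay below every control library. Hsp90b1 fell by 19.3%, a log2 fold change of -0.31 ± 0.05 (SE, adjusted p = 2.62e-05). GRP94 folds a narrow set of clients that includes integrins and Toll-like receptors. Of the Hsp90b1 transcript sequence, 10.02% of all stretches of 50 bases also occur in transcripts of 1810014B01Rik, on the other strand, and Gm15344. The sources used here give no strand setting for the counting, so the reads of Hsp90b1 and 1810014B01Rik cannot be told apart there. The antisense partner was listed at 2.10 CPM in libraries labelled Rif1-KO and 3.22 CPM in control libraries, which is small beside Hsp90b1. It fell as well (log2 fold change -0.59 ± 0.24 SE, adjusted p = 0.0446). How reads of the shared stretch were assigned is not known, so these listed levels set no limit on its part there.

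Calr and Canx encode calreticulin and calnexin, the soluble and the membrane-bound lectin that hold glycoproteins until they fold, and calreticulin also buffers ER calcium. Calr had 489.9, 482 and 517 CPM in libraries labelled Rif1-KO, against 589, 636 and 593 CPM in control libraries. Canx had 872, 855 and 914 CPM in libraries labelled Rif1-KO, against 999, 1010.1 and 1042.5 CPM in control libraries. Neither gene's groups overlapped. Calr fell by 18.1% (log2 fold change -0.29 ± 0.05 SE, adjusted p = 4.32e-05). Canx fell by 13.5% (log2 fold change -0.21 ± 0.05 SE, adjusted p = 7.46e-04). Of all 10 genes Canx had the most counts, and its share of the summed fall was the largest although its fold change was smaller than those of Calr, Hspa5 and Hsp90b1; a difference between these fold changes was not tested.

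Of the 3 protein disulfide isomerases, Pdia4 and Pdia3 fell and Pdia6 did not pass the test. Pdia4, which encodes ERp72, had 129, 123 and 124 CPM in libraries labelled Rif1-KO, against 157, 153.9 and 157 CPM in control libraries. The gap between its groups was many times the spread within them, with means of 125 ± 3.21 CPM in libraries labelled Rif1-KO and 156 ± 1.61 CPM in control libraries (SD, n = 3 each). Pdia4 fell by 19.5%, a log2 fold change of -0.31 ± 0.05 (SE, adjusted p = 1.2e-05).

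Pdia3 encodes ERp57, the isomerase that works on glycoproteins held by calreticulin and calnexin. It had 303, 319 and 327 CPM in libraries labelled Rif1-KO, against 337, 340.3 and 349.7 CPM in control libraries. The groups did not overlap but lay close together. Pdia3 fell by 7.65%, a log2 fold change of -0.12 ± 0.05 (SE, adjusted p = 0.0415). This call was lost without Rif1-KO replicate 1 (-0.08, adjusted p = 0.223), Rif1-KO replicate 2 (-0.12, adjusted p = 0.0731), control replicate 2 (-0.12, adjusted p = 0.0526) or control replicate 3 (-0.10, adjusted p = 0.153), and with DESeq2 (-0.12, adjusted p = 0.0561).

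Pdia6 encodes P5, an isomerase that binds BiP and that acts on the sensors IRE1 and PERK. It had 255, 277 and 257 CPM in libraries labelled Rif1-KO, against 269.9, 253 and 270.2 CPM in control libraries. The groups overlapped: the highest library was a Rif1-KO one and the lowest a control one. The log2 fold change was -0.01 ± 0.05 (SE, adjusted p = 0.891). Its 95% interval, -7.29% to 6.52%, did not reach the falls measured for Hspa5, Hsp90b1, Calr, Canx and Pdia4. Pdia3 and Pdia6 overlap, on the other strand, Catsper2 and Atp6v1c2, which were listed at 7.52 and 1.47 CPM in libraries labelled Rif1-KO and 6.94 and 1.88 CPM in control libraries. Pdia6 held the ER stress element without a called change, and Pdia4 fell without an exact copy in its window. Whether the element bears on either change was not tested.

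**Figure D2:**
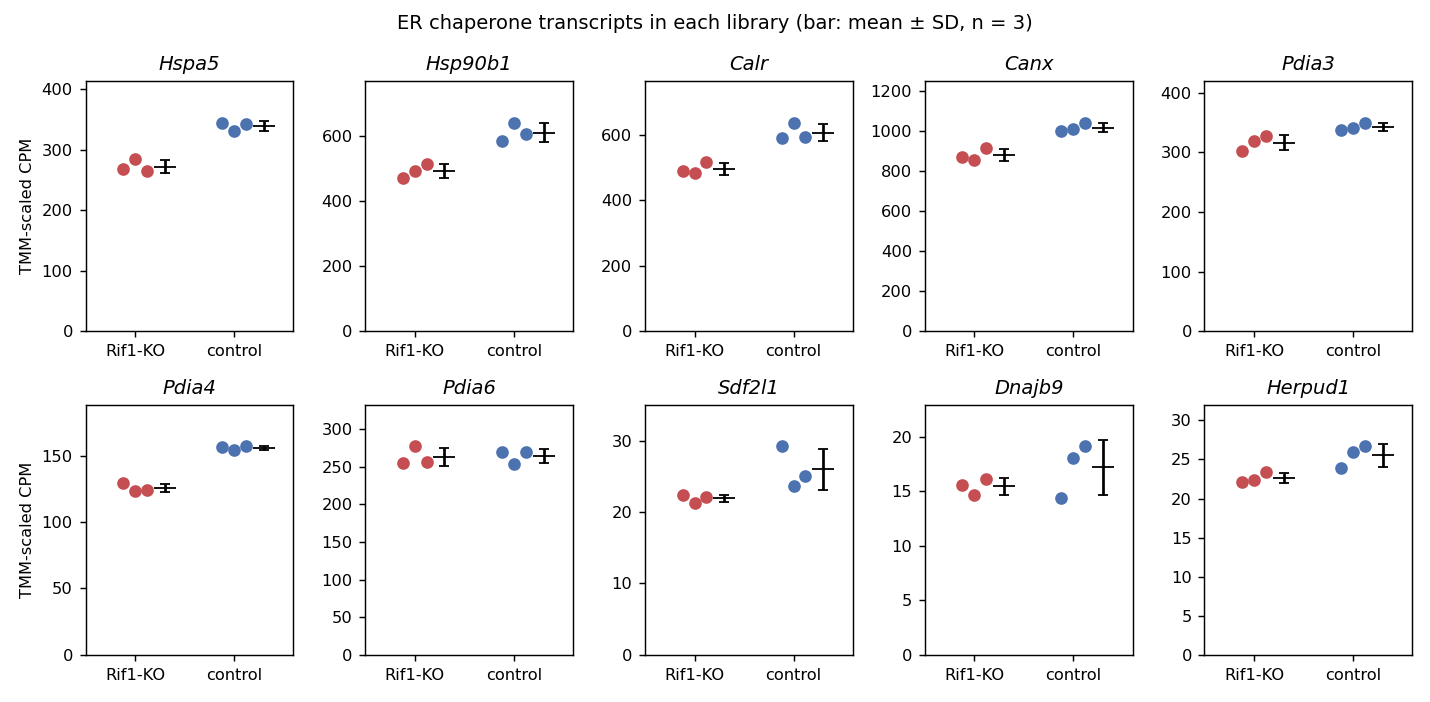
CPM of each gene in each library (points; 1 panel per gene, y axes from 0 with their own scale), with libraries labelled Rif1-KO left of control libraries and bars beside the points giving mean ± SD (n = 3). The groups are separate for Hspa5, Hsp90b1, Calr, Canx, Pdia3, Pdia4, Sdf2l1 and Herpud1, and overlap for Pdia6 and Dnajb9.

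The remaining genes are helpers read at far fewer counts. Sdf2l1 encodes a stress-induced ER protein that assists BiP together with J-domain partners. It had 22.3, 21.3 and 22.1 CPM in libraries labelled Rif1-KO, against 29.2, 23.7 and 25.1 CPM in control libraries. The groups did not overlap, and control replicate 1 stood above the other control libraries. Sdf2l1 fell by 15.9%, a log2 fold change of -0.25 ± 0.09 (SE, adjusted p = 0.0263). The call was lost without control replicate 1 (-0.16, adjusted p = 0.177), without Rif1-KO replicate 2 (-0.23, adjusted p = 0.0805), with DESeq2 (-0.25, adjusted p = 0.0797) and once transcript GC content and length were modelled (-0.14, adjusted p = 0.212).

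Dnajb9 encodes ERdj4, a J-domain protein that brings BiP to the sensor IRE1 and is a target of XBP1. It had 15.6, 14.6 and 16.2 CPM in libraries labelled Rif1-KO, against 14.4, 18.1 and 19.1 CPM in control libraries. Control replicate 1 was the lowest of all 6 libraries, so the groups overlapped. The log2 fold change was -0.15 ± 0.11 (SE, adjusted p = 0.279), with a 95% interval of -0.38 to 0.09. Without control replicate 1 it passed (-0.27, adjusted p = 0.0468). Of its stretches of 50 bases, 5.80% also occur in Gm6568, so some of its reads may be uncertain.

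Herpud1 encodes a membrane protein of the complex that sends misfolded proteins out of the ER for degradation. It had 22.1, 22.3 and 23.4 CPM in libraries labelled Rif1-KO, against 23.9, 26.0 and 26.7 CPM in control libraries. All control libraries lay above, yet the test did not pass (log2 fold change -0.17 ± 0.08 SE, adjusted p = 0.0885). Its 95% interval of -21.5% to 0.00668% just crossed 0, and without control replicate 1 it passed (-0.22, adjusted p = 0.0498). At these levels a fall of the size of that of Hspa5 lay inside the intervals of both Herpud1 and Dnajb9, so the depth does not separate them from Hspa5.

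**Figure D3:**
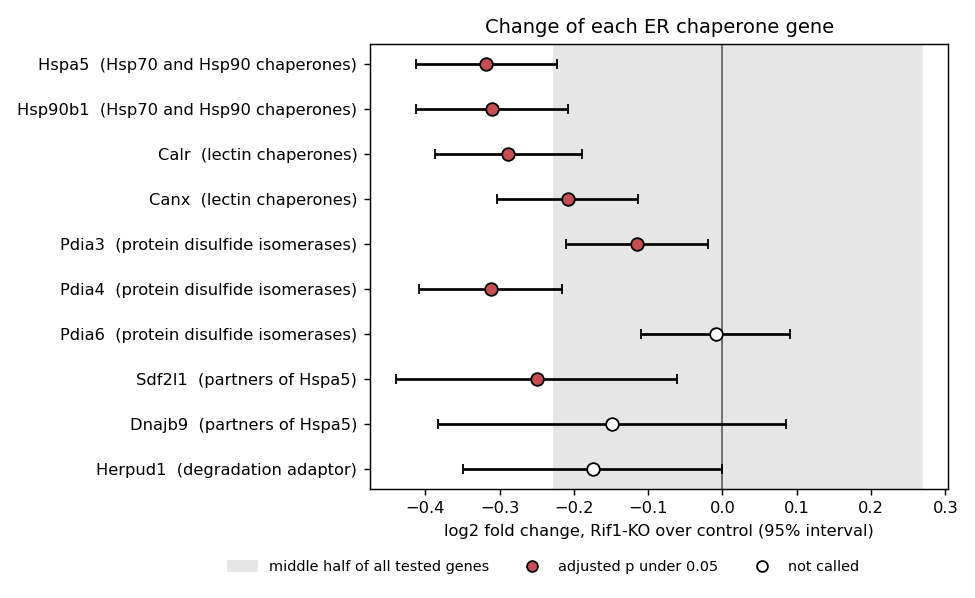
Log2 fold change of each gene, libraries labelled Rif1-KO over control libraries, with its 95% interval (x axis); filled points passed the test, and the grey band spans the quartiles of all tested genes, from -0.23 to 0.27. Hspa5, Hsp90b1, Calr, Canx and Pdia4 lie between -0.32 and -0.21, Pdia3 lies at -0.12, and Pdia6 lies at -0.01 with an interval around 0.

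Summed over the 10 genes, the libraries labelled Rif1-KO held 2846.0, 2891.4 and 2977.3 CPM, against 3346.2, 3432.2 and 3429.9 CPM in control libraries. The highest library labelled Rif1-KO lay below the lowest control library. The means were 2904.9 ± 66.7 CPM in libraries labelled Rif1-KO and 3402.7 ± 49.0 CPM in control libraries (SD, n = 3 each), a ratio of 0.854. As a share of all counts, the genes took 0.287% (0.284% to 0.290%), 0.291% (0.288% to 0.294%) and 0.296% (0.293% to 0.3%) of the libraries labelled Rif1-KO. In control libraries they took 0.336% (0.332% to 0.339%), 0.337% (0.333% to 0.341%) and 0.340% (0.337% to 0.344%). These are Wilson 95% intervals and cover counting error only. The difference of -498 CPM came mainly from Canx (27.5% of it), Hsp90b1 (23.6%), Calr (22%) and Hspa5 (13.5%), which together made up 86.6%. Pdia6, with counts close to those of Hspa5, gave 0.31% of it.

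Set per kilobase of exon, which allows levels of different genes to be compared, calreticulin led and ERdj4 was last in both groups. Calr averaged 227 CPM per kilobase in libraries labelled Rif1-KO and 277 in control libraries. Canx followed at 205 in libraries labelled Rif1-KO and 237 in control libraries, then Hsp90b1 at 174 in libraries labelled Rif1-KO and 216 in control libraries. Pdia6 averaged 121 ± 5.63 CPM per kilobase in libraries labelled Rif1-KO and 122 ± 4.41 in control libraries, and Pdia3 averaged 114 ± 4.43 in libraries labelled Rif1-KO and 124 ± 2.32 in control libraries (SD, n = 3 each). These isomerases, neighbours in the order, differed in either group by less than the sum of their SDs. Hspa5 averaged 72.5 CPM per kilobase in libraries labelled Rif1-KO and 90.4 in control libraries, and Pdia4 averaged 52.3 in libraries labelled Rif1-KO and 64.9 in control libraries. The helpers were lowest. Among libraries labelled Rif1-KO they averaged 19.8 (Sdf2l1), 11.6 (Herpud1) and 6.29 (Dnajb9) CPM per kilobase, and among control libraries 23.5 (Sdf2l1), 13.1 (Herpud1) and 6.99 (Dnajb9). Exon lengths are of the reference annotation, not of the transcripts made in these cells.

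Within groups the libraries varied little. In Rif1-KO replicate 3, 7 of the 10 lay above their group mean, with a median deviation of 0.05 on the log2 scale, and in control replicate 3 also 7 did, with a median of 0.02. The widest deviations belonged to the low helpers in control replicate 1, where Sdf2l1 lay 0.17 above and Dnajb9 lay -0.25 from its mean. Those of the 7 genes with a mean of at least 100 CPM stayed within 0.08.

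The transcripts of Atf6, Ern1 and Eif2ak3, which encode sensors of the unfolded protein response, did not pass the test, while downstream factors moved in both directions. The transcript of the sensor Atf6 averaged 59.5 ± 4.35 CPM in libraries labelled Rif1-KO and 59.3 ± 3.98 CPM in control libraries (log2 fold change 0.00 ± 0.07 SE, adjusted p = 0.962). Ern1, which encodes IRE1, did not pass either (0.11 ± 0.08 SE, adjusted p = 0.254), nor did Eif2ak3, which encodes PERK (0.03 ± 0.07 SE, adjusted p = 0.772). Atf6b, a relative of Atf6 named after its values were seen, fell (-0.25 ± 0.07 SE, adjusted p = 0.00539). A transcript level says nothing of whether a sensor was active. Xbp1, the factor that IRE1 activates by splicing, fell to 48.8 ± 1.78 CPM in libraries labelled Rif1-KO, against 56.3 ± 2.69 CPM in control libraries (-0.21 ± 0.06 SE, adjusted p = 0.00972). The counts do not separate spliced from unspliced Xbp1. Atf4, whose translation PERK raises, fell (-0.30 ± 0.05 SE, adjusted p = 1.48e-05), and Ddit3, the stress factor CHOP, rose to 85.9 ± 5.32 CPM against 70.5 ± 5.01 CPM in control libraries (0.28 ± 0.06 SE, adjusted p = 7.02e-04). Of the NF-Y subunits, Nfya rose (0.21 ± 0.05 SE, adjusted p = 0.00182), Nfyb fell (-0.27 ± 0.05 SE, adjusted p = 1.49e-04) and Nfyc did not pass (-0.23 ± 0.10 SE, adjusted p = 0.057).

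Across 20 sensors and transcription factors, 3 were higher (15%), 6 lower (30%) and 11 not called, with a median of -0.15. The shares over all genes tested were 26.1% higher and 24.8% lower. Creb3, a membrane-bound relative of ATF6, rose to 35.7 ± 2.50 CPM in libraries labelled Rif1-KO, against 14.4 ± 1.29 CPM in control libraries (1.31 ± 0.10 SE, adjusted p = 5.36e-10). Wfs1, an ER membrane protein that restrains ATF6, fell (-0.64 ± 0.07 SE), and so did Gtf2i, which encodes a factor that binds the ER stress element (-0.42 ± 0.05 SE). Of the 16 targets of the PERK and ATF4 arm, 4 rose (25%) and 9 fell (56.2%), with a median of -0.21. Among them Psat1, an enzyme of serine synthesis, fell (-0.58 ± 0.04 SE), as did Chac1, which degrades glutathione, at 5.67 ± 0.715 CPM in libraries labelled Rif1-KO against 15.4 ± 2.01 CPM in control libraries (-1.44 ± 0.15 SE). Atf3, a stress-induced repressor, rose to 18.4 ± 1.15 CPM against 6.31 ± 0.329 CPM in control libraries (1.54 ± 0.13 SE), and Ddit4, an inhibitor of mTORC1, rose as well (0.47 ± 0.06 SE).

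Other ER folding factors were mixed, with 12 genes higher (26.7%), 14 lower (31.1%) and 19 not called among 45, and with a median of -0.05. Over all genes tested, 26.1% were higher and 24.8% lower. The 4 with the smallest adjusted p fell. Named after their values were seen, the next by adjusted p was Hspa13, an ER-associated Hsp70 protein, which rose (0.56 ± 0.08 SE, adjusted p = 1.06e-05), and the largest folds were rises, of Tmx4, an ER membrane thioredoxin (0.68 ± 0.10 SE), and Uggt2, a relative of Uggt1 (0.61 ± 0.13 SE). Hyou1, the exchange factor and large Hsp70 partner of BiP, had 199.8, 193 and 186 CPM in libraries labelled Rif1-KO, against 284, 262 and 288 CPM in control libraries (-0.53 ± 0.05 SE, adjusted p = 2.82e-08). Its fold change was further from 0 than that of any of the 10 chaperones, a difference that was not tested. Uggt1, the folding sensor that returns glycoproteins to calreticulin and calnexin, averaged 281 ± 7.97 CPM in libraries labelled Rif1-KO and 381 ± 4.59 CPM in control libraries (-0.44 ± 0.04 SE). Clgn, a calnexin relative first known from testis, fell (-0.45 ± 0.06 SE), and so did Cnpy3, a partner of GRP94 (-0.43 ± 0.06 SE). Named after their values were seen, the isomerase P4hb fell (-0.23 ± 0.04 SE) while Dnajc3, a J-domain partner of BiP, rose (0.17 ± 0.06 SE) and Dnajc10, a reductase that works with BiP, rose too (0.30 ± 0.05 SE).

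The genes of ER-associated degradation, which clears what the chaperones cannot fold, rose about as often as all genes tested. Of the 32, 9 rose (28.1%, against 26.1% of all genes tested), 3 fell (9.38%, against 24.8%) and 20 were not called, with a median of 0.06. Edem1, a lectin that picks misfolded glycoproteins, rose (0.41 ± 0.07 SE), as did Selk, a selenoprotein of the degradation complex (0.46 ± 0.08 SE), and Herpud2 (0.58 ± 0.09 SE). Herpud2, a relative of Herpud1, averaged 35.5 ± 4.12 CPM in libraries labelled Rif1-KO and 23.9 ± 2.25 CPM in control libraries. The 3 that fell, named after their values were seen, were Sel1l, the scaffold of a ubiquitin ligase (-0.29 ± 0.05 SE), Ube2j2 (-0.17 ± 0.07 SE) and Derl3, which was near 1 to 2 CPM (-0.92 ± 0.32 SE).

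Among 39 tested genes of protein entry into the ER and sugar addition, 5 rose (12.8%), 14 fell (35.9%) and 20 were not called, with a median of -0.07. Of all genes tested 26.1% rose and 24.8% fell. Of those with a mean of at least 100 CPM, a level that not all on this list reach, 40.3% fell. Srp68 of the signal recognition particle fell (-0.30 ± 0.05 SE), as did Ddost of the oligosaccharyltransferase (-0.28 ± 0.05 SE) and Prkcsh, the beta subunit of the glucosidase that prepares glycans for the lectin chaperones (-0.25 ± 0.05 SE), whereas Sec62 of the translocon rose (0.29 ± 0.06 SE). Of 30 genes of ER exit and retrieval, 7 rose (23.3%, against 26.1% of all genes tested) and 7 fell (23.3%, against 24.8%). The other 16 did not pass, and the median of the 30 was 0.002. Lman1, a lectin that carries glycoproteins to the Golgi, fell (-0.36 ± 0.05 SE), while Sec16a (0.34 ± 0.05 SE) and Sec23a (0.25 ± 0.04 SE), which build ER exit sites and their coat, and Arfgap3 (0.41 ± 0.07 SE) rose. Several chaperones here end in the KDEL signal that KDEL receptors read to bring escaped proteins back. Kdelr2 fell to 74.5 ± 3.39 CPM in libraries labelled Rif1-KO, against 90.6 ± 5.48 CPM in control libraries (-0.28 ± 0.06 SE, adjusted p = 3.92e-04). Kdelr1 (-0.11 ± 0.05 SE, adjusted p = 0.0843) and Kdelr3 (-0.07 ± 0.08 SE, adjusted p = 0.436) did not pass.

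Of 37 tested cytosolic and mitochondrial chaperones, 6 rose (16.2%), 23 fell (62.2%) and 8 were not called. Among all genes tested 26.1% rose and 24.8% fell. Among those with a mean of at least 100 CPM, a level that not all of these chaperones reach, 27.8% rose and 40.3% fell. The median of these chaperones was -0.20, near the -0.23 of the ER chaperones. Hspa8 and Hspa9, the Hsp70 proteins of cytosol and mitochondria, fell (-0.45 ± 0.05 SE and -0.46 ± 0.04 SE), as did Hsph1, a cytosolic exchange factor (-0.60 ± 0.06 SE), whereas Hspa4l, a relative of Hsph1, rose (1.0 ± 0.09 SE). The cytosolic counterparts of Hsp90b1, named after their values were seen, went in opposite directions. Hsp90aa1 rose (0.30 ± 0.05 SE) and Hsp90ab1 fell (-0.40 ± 0.05 SE). The 7 lists together held 219 tested genes, of which 46 rose (21.0%) and 76 fell (34.7%), with a median of -0.07.

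**Figure D4:**
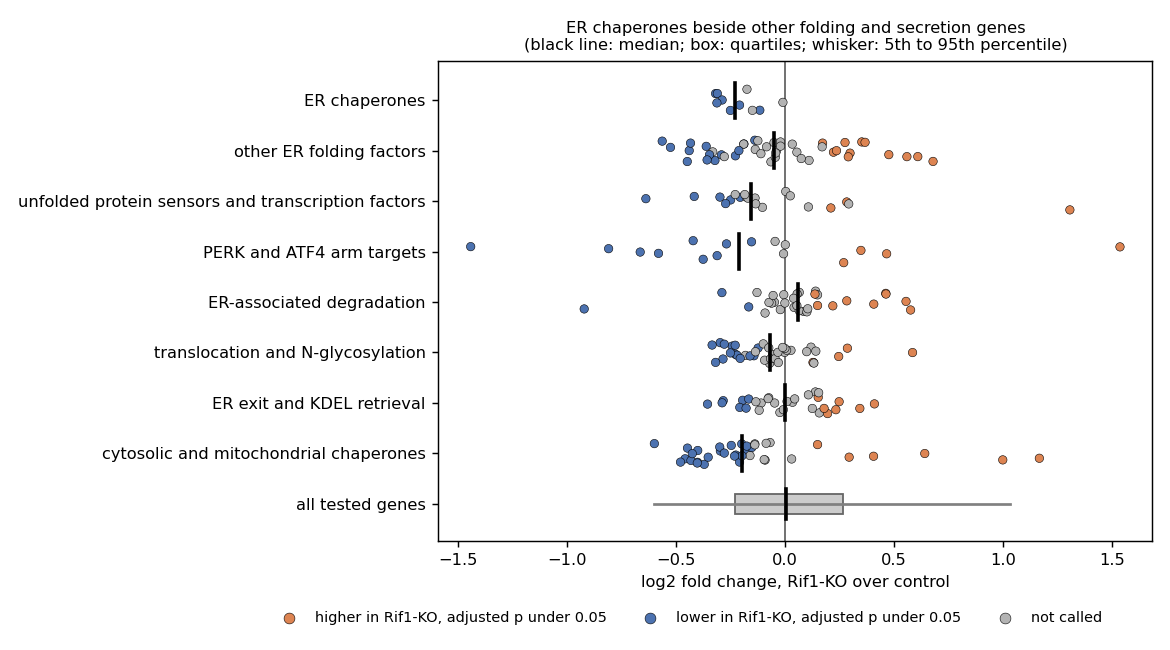
Log2 fold change of every tested gene, libraries labelled Rif1-KO over control libraries (x axis), for the ER chaperones and the 7 other lists, coloured by call, with black lines at the medians; the bottom row gives the quartiles and the 5th to 95th percentiles of all tested genes. Medians run from -0.23 for the ER chaperones and -0.20 for cytosolic and mitochondrial chaperones to 0.06 for ER-associated degradation.

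Of the 37 genes found with the ER stress element, 27 could be matched to a symbol of the counts and 22 were tested. Among these 22, 2 rose (9.09%), 8 fell (36.4%) and 12 did not pass. With the chaperones Hspa5, Hsp90b1, Calr, Canx and Pdia6 left out, 17 were tested, of which 2 rose (11.8%), 4 fell (23.5%) and 11 did not pass, with a median of 0.05. Among all 10727 tested genes whose promoter was searched, 26.5% rose and 25.9% fell, with a median of 0.001. Named after their values were seen, the other holders include Syvn1, a ubiquitin ligase of ER-associated degradation (0.07 ± 0.07 SE, adjusted p = 0.456), Creld2, an ER stress-induced protein (-0.14 ± 0.06 SE, adjusted p = 0.0852), and Dnajc3 and Derl3, described above.

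The falls of 5 of the 7 called genes held in every processing tried, and those of Pdia3 and Sdf2l1 did not. Hspa5, Hsp90b1, Calr, Canx and Pdia4 kept direction and call under all 13 alternatives, which changed the scaling, the filter, the tool or the covariates or left out each library in turn. Under these the count of the 10 genes that fell ran from 5 to 8, and none rose in any.

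**Figure D5:**
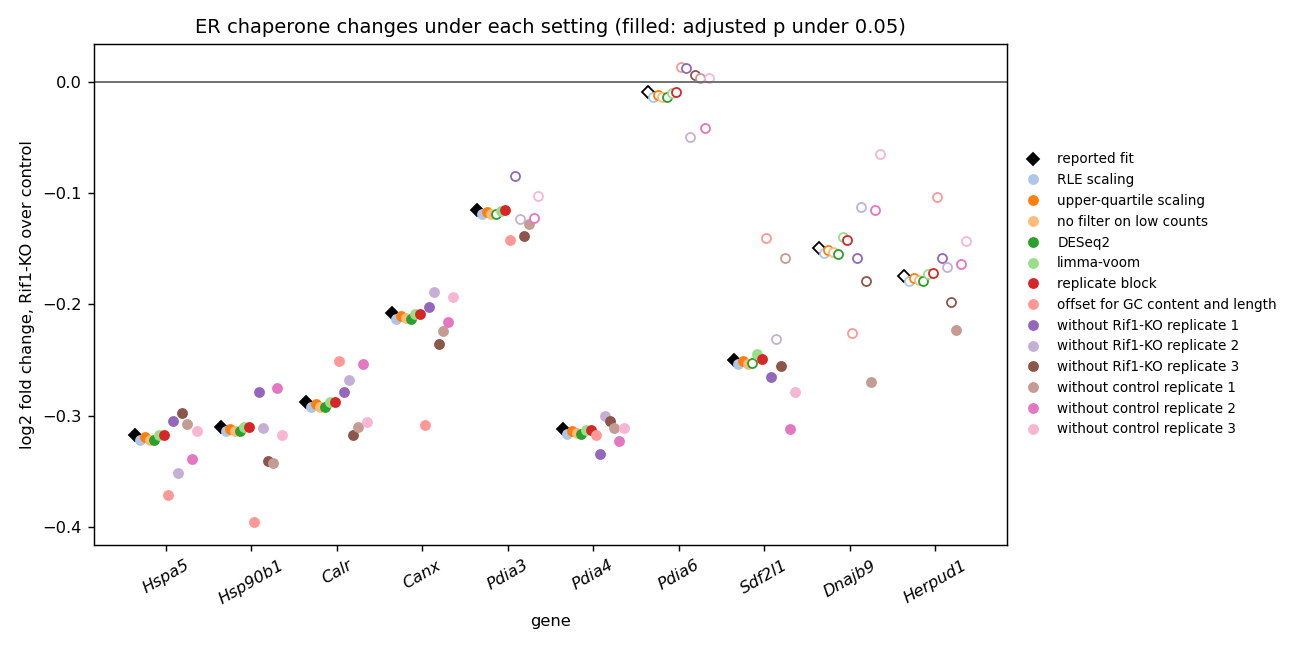
Log2 fold change (y axis) as reported (diamonds) and under the 13 alternatives (coloured points) for each gene along the x axis, filled where the adjusted p is under 0.05. Hspa5, Hsp90b1, Calr, Canx and Pdia4 are filled throughout, Pdia3 and Sdf2l1 in some, Dnajb9 and Herpud1 only without control replicate 1, and Pdia6 in none.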

How the data were processed

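RNA was sequenced from 6 libraries, 3 labelled Rif1-KO and 3 labelled control. Each deposited table holds the authors' unnormalized read counts for 1 library, by gene symbol. The submitters' processing notes name STAR, featureCounts 1.6.2 and build mm9; the sources used here give neither annotation nor strand setting nor the handling of multiply mapping reads. The 10 genes and the 7 other lists were chosen with earlier results of these data known. All genes were fitted together with edgeR 4.0.16 under R 4.3.3, by the quasi-likelihood test on group alone after filterByExpr and TMM scaling, and adjusted by Benjamini-Hochberg over 14250 genes, called at 0.05. CPM are TMM-scaled, with SD over 3 libraries, and log2 fold changes carry the fit's standard error. Alternatives used RLE and upper-quartile scaling, no filter (at least 1 count), DESeq2 1.42.0, limma-voom (limma 3.58.1), a replicate block, an offset for transcript GC content and length (known for 97.9% of tested genes), and each library left out. Beyond the 10 genes, the text names Rif1, the sensors, their factors and KDEL receptors, and from each list up to 4 called genes in order of adjusted p; 1 gene that this takes is not reported here. The fit was tested on simulated data in which few genes changed, unlike these data, where 50.9% were called. That test does not cover scaling when many genes change. Promoters are from RefSeq on GRCm38.p6, and exon lengths and shared sequence from GENCODE on GRCm38; that build differs from mm9, so no coordinates from the counting are printed. The counting intervals given are only a lower limit on the error. Pairs of libraries within a group differed beyond counting error, with a chi-square per degree of freedom of 1.27 to 4.22. Reads are not independent molecules.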

Additional observations from a re-analysis of the deposited data

How the results depend on the processing

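Over 13 alternatives for each of the 10 genes (130 values), 114 kept direction and call, 9 lost a call (Pdia3 and Sdf2l1), 2 gained one (Dnajb9 and Herpud1, both without control replicate 1) and 5 changed sign. The 5 are all of Pdia6, whose log2 fold change was 0.014 with the GC and length offset, 0.013 without Rif1-KO replicate 1, 0.007 without Rif1-KO replicate 3, and 0.004 without control replicate 1 or without control replicate 3; none passed, and without Rif1-KO replicate 2 the value was -0.049. The count of the 10 genes that fell was 5 with DESeq2, 6 with the offset and 5 to 8 with a library left out. All genes called higher ran from 3029 to 4000 and called lower from 2879 to 3741. Listed genes called higher ran from 35 to 48 and lower from 67 to 83. The summed level fell by 13.7% to 14.9% across scalings. A pairing of samples by replicate number was not shown. Same-numbered deviations correlated at 0.0793, -0.0646 and 0.0461, and not every library correlated best with its own number. Whether same-numbered libraries shared a batch was not tested. The replicate block left 7 of the 10 genes lower, changed none of their calls, and gave 3779 genes higher and 3607 lower. Without the block, 3722 genes were higher and 3529 lower. The low counts of Dnajb9, Herpud1 and Sdf2l1 limit what can be said of them.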
